A study of Mus musculus with 18 samples.

Results

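Sema3b, Meox1, Csrp2, Serpinb11, Serpinf1, Crispld2, Vcan and Lbhd2 are 8 of the 31053 genes and other features counted in single cells of mouse mammary gland, chosen by their ratio between basal cells of terminal end buds (TEBs) and basal cells of ducts. Because the values of those 2 libraries chose the genes, that ratio is described here without a test. The question asked was whether genes of the pubertal TEB basal cell are also found in basal cells of the embryo, the neonate, the gland before puberty and the cycling gland of the adult and of pregnancy. A cell was counted as basal where its unique molecular identifiers (UMIs, 1 per captured RNA molecule) of Krt5 and Krt14 outnumbered those of Krt8 and Krt18, and as luminal in the reverse case. By this rule 43006 of the 123574 cells kept in 17 mammary libraries were basal, from 184 in the TEB library to 7251 in a pregnancy library.

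C57BL/6 mice gave 6 of the mammary libraries, each the only library of its group: the E18.5 mammary rudiment (embryos carrying an Lgr5-GFP reporter), glands of pups 5 days after birth (day 5), glands at 2.5 weeks, labelled pre-puberty, TEBs and ducts dissected by hand at 5 weeks (Ecadherin-GFP reporter), and the adult gland at 10 weeks. SWISS mice gave 1 adult library at the same age. FVB/NJ mice gave 3 adult libraries at 10 weeks (A10, P7 and D12), 2 of pregnancy day 12.5 (H and G), 2 of pregnancy day 18.5 (F4 and B4), 2 of lactation day 10 (F11 and D6) and 1 of post-involution, labelled 3 weeks after the birth. These ages are those of the labels, and the text of the study gives a younger age for pre-puberty, varies in the day of lactation and in places counts the post-involution weeks from weaning. Apart from these reporters no genetic change or drug was applied, each library pooled glands of several animals, and the adults were not staged for estrus. Stage and strain cannot be told apart between the C57BL/6 and FVB/NJ libraries. The study calls the libraries of a stage biological replicates, and the labels do not name the animals behind each.

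The TEB is the club-shaped tip that leads duct growth through the fat pad at puberty. Its outer layer, the cap cells, lies under the basement membrane, expresses basal keratins and gives rise to the myoepithelium of the duct behind it. Cap cells divide, contact stroma and matrix, and have not yet taken on the contractile program of myoepithelial cells. The 8 genes cover several roles. Sema3b encodes a secreted class 3 semaphorin, a guidance ligand read through neuropilins and plexins. Vcan encodes versican, a large hyaluronan-binding proteoglycan of loose and growing matrix. Crispld2 encodes a secreted protein of the CAP family, and Serpinf1 encodes pigment epithelium-derived factor, a secreted non-inhibitory serpin. Serpinb11 is an intracellular clade B serpin. Csrp2 encodes a LIM-domain protein of the actin cytoskeleton, Meox1 a homeobox transcription factor known from the somites, and Lbhd2 a small protein with an LBH domain.

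On GRCm38 (GENCODE vM21 annotation, genes matched by Ensembl identifier) the 8 genes are protein-coding and lie on 7 chromosomes. Serpinb11 (ENSMUSG00000026327) is at chr1:107361198-107380475 on the plus strand, Sema3b (ENSMUSG00000057969) at chr9:107597674-107609229 on the minus strand and Csrp2 (ENSMUSG00000020186) at chr10:110919789-110939622 on the plus strand. Serpinf1 (ENSMUSG00000000753) at chr11:75409769-75422701 and Meox1 (ENSMUSG00000001493) at chr11:101877510-101894374 are both on the minus strand. Lbhd2 (ENSMUSG00000087075) is at chr12:111406809-111412090 on the plus strand and Vcan (ENSMUSG00000021614) at chr13:89655312-89742509 on the minus strand. Crispld2 (ENSMUSG00000031825) at chr8:119992438-120052793 shares its plus strand with the overlapping gene model Gm20388, so its count is uncertain where that model took or blocked reads.

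Promoters of 5 of the 8 genes were in the RefSeq table used (GRCm38.p6), as 300 bases from 250 before to 50 after the start. Those of Serpinb11, Lbhd2 and Vcan are shown because these genes were called higher in cycling basal cells of FVB/NJ mice. Capitals mark matches, on either strand, to GGGCGG (a GC box) or CCAAT, from 5 motifs searched. The Serpinb11 window follows RefSeq's start, which lies inside the GENCODE gene.
Serpinb11, chr1:107362064-107362363, plus strand: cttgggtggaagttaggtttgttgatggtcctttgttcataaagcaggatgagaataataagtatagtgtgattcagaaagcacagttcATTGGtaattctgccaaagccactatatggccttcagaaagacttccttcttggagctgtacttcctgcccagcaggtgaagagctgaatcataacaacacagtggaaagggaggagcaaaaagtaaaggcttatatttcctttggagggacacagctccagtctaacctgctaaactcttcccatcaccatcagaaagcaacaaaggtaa
Lbhd2, chr12:111406559-111406858, plus strand: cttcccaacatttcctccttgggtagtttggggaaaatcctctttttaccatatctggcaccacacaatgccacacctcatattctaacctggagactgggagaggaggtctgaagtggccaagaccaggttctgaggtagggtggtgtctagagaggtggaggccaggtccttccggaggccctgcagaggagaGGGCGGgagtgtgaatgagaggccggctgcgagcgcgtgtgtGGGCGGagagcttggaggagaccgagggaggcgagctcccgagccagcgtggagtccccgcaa
Vcan, chr13:89742463-89742762, minus strand: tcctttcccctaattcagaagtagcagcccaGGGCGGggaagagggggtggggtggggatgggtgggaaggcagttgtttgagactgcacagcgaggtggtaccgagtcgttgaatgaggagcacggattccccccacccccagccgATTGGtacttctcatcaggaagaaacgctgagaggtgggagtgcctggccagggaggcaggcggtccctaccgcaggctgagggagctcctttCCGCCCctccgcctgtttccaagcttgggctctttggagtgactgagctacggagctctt
The Lbhd2 window held 2 GC boxes and no CCAAT, the Serpinb11 window held 1 CCAAT and no GC box, and the Vcan window held 2 GC boxes and 1 CCAAT. Over all 32851 promoters of the table, 35.7% held GGGCGG, and 37.4% held CCAAT. The other motifs were TTTGAA, held by 17.9% of them, GGAATG, held by 14.7%, and the TATA box TATAAA, held by 13.6%. None of these 3 was found in the 5 windows, which says only that these letters are not in these 300 bases.

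Library totals ran from 9920346 to 93234616 UMIs, and basal cells of a library held 2527700 to 28725608 UMIs, so a level of 1 CPM (UMIs per 1000000 UMIs) in basal cells rested on about 3 to 29 molecules. Marker lists were set beside the keratin rule. The 13 basal markers include Krt5 and Krt14, which define the class, so their values are no independent check. The summed level of 13 basal markers was higher in basal than in luminal cells in every mammary library, and in the FVB/NJ libraries 11 of 13 were higher in basal cells by edgeR's test and 1 was lower. The contractile genes of myoepithelial cells, 12 listed, summed to 1253 CPM in E18.5 basal cells and 4213 CPM at postnatal day 5, against 25629 CPM in the C57BL/6 adult and 9111 CPM in the TEB. Basal cells of the E18.5 and day 5 libraries are therefore basal by keratin but were low in contractile genes. At E18.5 the rule put 1816 of 6398 cells in the basal class and 3999 in the luminal class. The study describes E18.5 cells as closer to basal than luminal cells, with little sign of separate lineages. The 2 classes at E18.5 are thus divided by keratin only, and 45.3% of the basal class had 3 or more fibroblast-marker UMIs. Day 5 basal cells also carried 9906 CPM of 8 epidermal markers, against 562 CPM in the C57BL/6 adult. Any 2 libraries shared at most 239 cell barcodes. E18.5 shared 92 with A10 and 102 with post-involution but 1 with the C57BL/6 adult, which shared 39 with the SWISS adult. The TEB and the duct each shared 0 with the C57BL/6 adult. P7 had barcodes of 14 bases and the other libraries of 16. Whether a difference in capture enters the ratios to the C57BL/6 adult was not tested.

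The share of basal cells with several of the 8 genes differed widely between libraries. The TEB and duct shares describe the libraries that chose the genes and support nothing. Cells of 2000 or more UMIs were thinned to 2000 UMIs and the others left out. This kept 375 of 872 basal cells in F11, 454 of 655 in D6 and 550 of 1174 in P7. On that basis 63.6% of 184 TEB basal cells had a UMI of 3 or more of the 8 genes (117 cells, 95% exact binomial interval 56.2% to 70.5%) and 42.4% had one of 4 or more. The share was 12.2% of 719 duct basal cells (9.93% to 14.9%). The SWISS adult stood between them at 30.7% of 3038 basal cells (29.1% to 32.4%). The 3 FVB/NJ adults ranged widely, from 11.3% of 3157 cells in A10 (10.2% to 12.4%) to 2% of 550 in P7 (11 cells) and 0.419% of 2150 in D12 (0.192% to 0.793%). Pregnancy day 12.5 gave 7.04% in H and 7.97% in G. The E18.5 rudiment gave 2.82% (2.08% to 3.72%), postnatal day 5 0.368% and pre-puberty 0.82%, beside 1.78% in the C57BL/6 adult (1.30% to 2.36%), whose interval overlaps that of E18.5. Luminal cells of E18.5 gave 2.46% by the same count. In lactation, 0 of 375 F11 and 0 of 454 D6 cells had 3 or more, with upper bounds of 0.979% and 0.809%. These intervals cover counting error only.

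**Figure D1:**
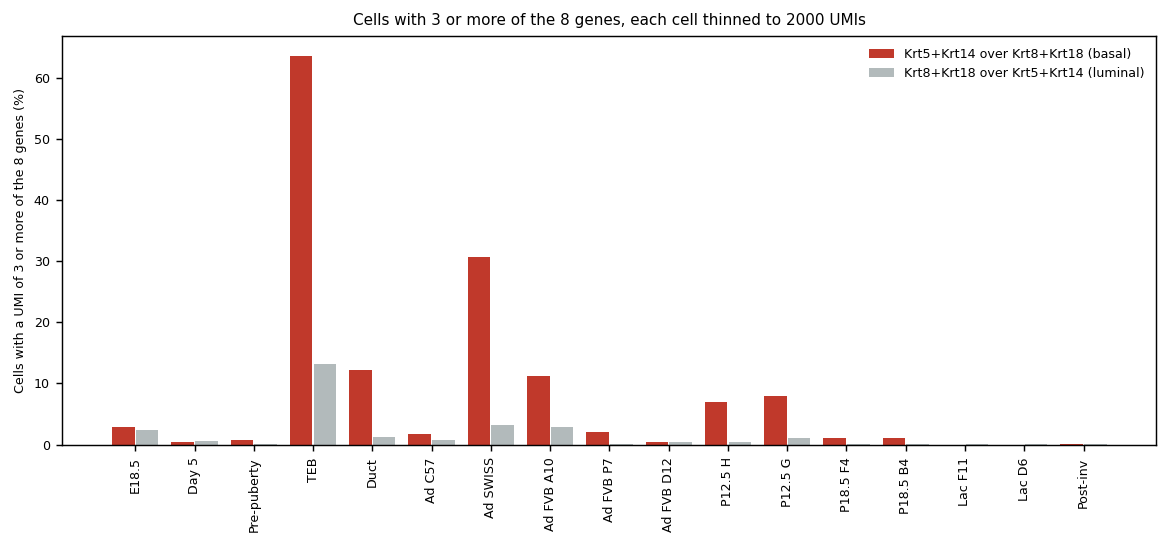
Percentage of cells (y axis, from 0) with a UMI of 3 or more of the 8 genes in each mammary library (x axis), for basal cells (red) and luminal cells (grey). Cells of 2000 or more UMIs were thinned to 2000 UMIs and the others left out. The TEB bar stands at 63.6% for basal and 13.1% for luminal cells, and the SWISS adult is the next highest for basal cells at 30.7%.

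TEB cells with more luminal than basal keratin also carried the genes. Of 1636 such cells, 25.7% had 1 or more of the 8, 9.29% had 4 or more and 13.1% had 3 or more (11.5% to 14.9%), against 1.24% of 965 duct luminal cells. All 8 genes were 2-fold or more higher in TEB than in duct luminal cells, where 7.15% of 7610 genes were. These cells come from the 2 libraries that chose the genes, so the count is a description, and the ratio ran from 3.86 for Crispld2 to 11.9 for Meox1. The keratin rule put 9.96% of TEB cells and 42.4% of duct cells in the basal class, and cells with 3 or more of the genes were found in both keratin classes of the TEB. How near these cells lay to the keratin cut, and the part of doublets or free RNA in them, was not tested.

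In basal cells the TEB over duct ratio was 14.2 for Csrp2, 3.16 for Meox1, 2.97 for Serpinf1, 2.91 for Sema3b, 2.77 for Lbhd2, 2.47 for Crispld2, 1.98 for Serpinb11 and 1.59 for Vcan. The ratio was 2 or more for 6 of the 8 (2.01% of all genes), a count that the choice of genes fixes. Csrp2 stood at 638 CPM in the TEB and 45.1 CPM in the duct, and the other 7 genes were closer between the libraries. With cells of 3 or more fibroblast-marker UMIs left out, all 8 ratios were 2 or more (4.38% of all genes), from 2.27 for Vcan to 23.0 for Csrp2. Such cells made up 48.3% of duct and 29.3% of TEB basal cells. Among cycling basal cells, Vcan was 255 CPM in the TEB and 247 CPM in the duct and Serpinb11 284 and 245 CPM. In the other, non-cycling basal cells Vcan was 227 CPM in the TEB and 115 CPM in the duct, and Serpinb11 119 and 59.7 CPM. Csrp2 had a ratio of 7.70 and Meox1 of 2.33 in cycling cells.

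Sema3b in basal cells was highest in the TEB at 133 CPM (95% Poisson interval 123 to 144). The SWISS adult followed at 91.2 CPM (87.1 to 95.5), the E18.5 rudiment at 59.4 CPM (55.5 to 63.6) and the duct at 45.7 CPM. Postnatal day 5, pre-puberty, the C57BL/6 adult and the 3 FVB/NJ adults lay between 5.93 and 11.7 CPM. It was 1.02 and 1.35 CPM at pregnancy day 12.5, 0.364 and 0.559 CPM at day 18.5, 0 in both lactation libraries and 1.63 CPM post-involution. The guidance ligand was thus high in the rudiment and at puberty, low in between in C57BL/6 mice, and under 2 CPM in the FVB/NJ libraries from pregnancy on. With stromal-marker cells left out, pre-puberty was 1.66 CPM and E18.5 was 55.1 CPM. Under a stricter keratin rule, defined below, Sema3b was 80.1 CPM in the TEB (67.4 to 94.5) and 79.7 CPM in the SWISS adult (75.4 to 84.2), with overlapping intervals. E18.5 was 30.3 CPM under that rule (26.2 to 34.8). In the main setting Sema3b at E18.5 was higher in luminal (74.2 CPM) and fibroblast-marker cells (120 CPM) than in basal cells.

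Vcan was highest in the SWISS adult at 379 CPM (370 to 387), followed by the TEB at 245 CPM (231 to 260), the duct at 154 CPM, A10 at 137 CPM and E18.5 at 134 CPM (128 to 141). The E18.5 and A10 intervals overlap. Pregnancy day 12.5 gave 105 and 109 CPM, and the C57BL/6 adult, pre-puberty and day 5 gave 59.8, 58.5 and 52.1 CPM. The other 7 libraries lay between 4.48 and 21.2 CPM.

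Crispld2, the secreted CAP-family gene, followed another order. It was 1096 CPM in the TEB, 819 CPM in A10, 559 CPM in the SWISS adult, 458 CPM in the C57BL/6 adult and 443 CPM in the duct. It was 132 CPM at E18.5, 96.6 CPM at pre-puberty and 34.3 CPM at day 5, below all 5 adult libraries (152 to 819 CPM). Pregnancy gave 283 and 306 CPM at day 12.5 and 185 and 206 CPM at day 18.5.

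Serpinf1 was 295 CPM in the TEB and 174 and 173 CPM at pregnancy day 12.5, with A10 (106 CPM), P7 (104 CPM) and the duct (99.6 CPM) next. Pre-puberty stood at 73.1 CPM (69.4 to 76.9), E18.5 at 47.3 CPM and day 5 at 17.1 CPM. Both lactation libraries were low, at 5.86 and 8.59 CPM. Serpinb11, the other serpin, was 225 CPM in the TEB, 217 CPM in the SWISS adult, 114 CPM in the duct and 70.8 CPM in A10, and the TEB and SWISS intervals overlap (212 to 240 and 210 to 223 CPM). It was 2.15 CPM at E18.5 (1.45 to 3.06), 1.29 CPM at day 5, and 0 UMIs at pre-puberty, which allows up to 0.149 CPM. The 2 serpins therefore parted before puberty and in pregnancy, where Serpinb11 was 3.19 and 2.84 CPM.

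Csrp2 was 638 CPM in the TEB (615 to 662), and the next library, the SWISS adult, was at 107 CPM. The other libraries ran from 4.48 CPM in lactation F11 to 70.5 CPM in A10, with E18.5 at 37.9 CPM and day 5 at 37.4 CPM. Meox1 was 111 CPM in the TEB (102 to 121), 35.2 CPM in the duct and 28.1 CPM in P7. Pre-puberty followed at 20.3 CPM (18.4 to 22.4), and E18.5 and day 5 were at 2.07 and 2.89 CPM with overlapping intervals. In the SWISS adult, where 6 of the other 7 genes exceeded their duct level, Meox1 was 8.82 CPM, the lowest of the 5 adults.

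Lbhd2 was 216 CPM in the TEB (202 to 230), and 131 to 138 CPM in the SWISS adult and both pregnancy day 12.5 libraries. The duct gave 77.9 CPM, A10 46.3 CPM, and pregnancy day 18.5 17.9 and 22.6 CPM. It was 8.01 CPM at E18.5, 2.02 CPM at day 5 and 2.74 CPM at pre-puberty. P7, D12, lactation and post-involution were at 2.56 CPM or less, so the 3 FVB/NJ adults spread from 0.791 to 46.3 CPM.

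**Figure D2:**
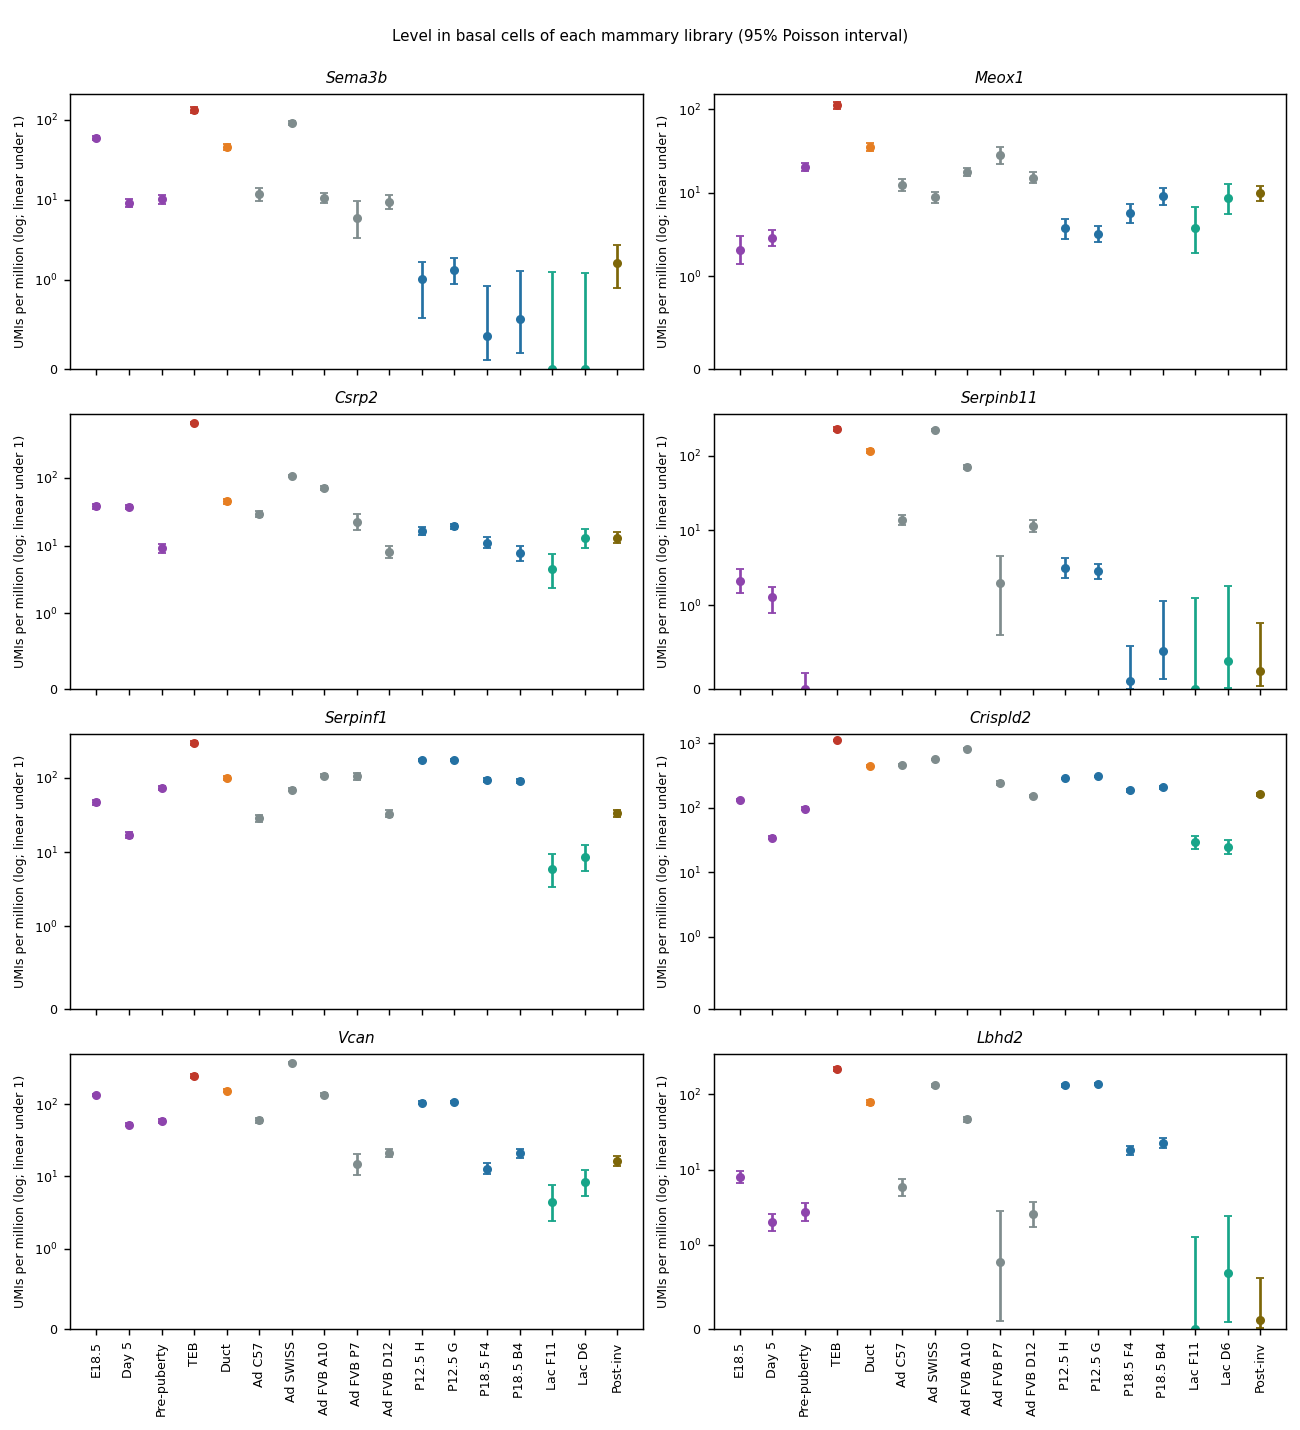
CPM in basal cells (y axis, logarithmic and linear under 1) of each mammary library (x axis), 1 panel per gene, with 95% Poisson intervals. Purple is E18.5 to pre-puberty, red TEB, orange duct, grey adults, blue pregnancy, green lactation and olive post-involution. The TEB was the highest library for 7 genes, and for Vcan it was second to the SWISS adult.

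In the study's methods the C57BL/6 adult was processed concurrently with the pre-puberty and SWISS libraries, and E18.5 with the E18.5 skin library. Stage and processing therefore cannot be told apart between E18.5 and this adult. Against the C57BL/6 adult, the E18.5 rudiment was 2-fold or more higher in 2 of the 8 genes (11% of 7610 genes) and 2-fold or more lower in 3 (25.7%). The higher pair were Sema3b, 5.08-fold (exact interval 4.22 to 6.15), and Vcan, 2.25-fold (2.06 to 2.46). With a stricter keratin rule (5 or more Krt5 and Krt14 UMIs, and at least 3 times those of Krt8 and Krt18) Vcan was 1.32-fold (1.16 to 1.51), no longer past 2-fold, and Sema3b 3.20-fold (2.47 to 4.18). The ratio was 0.156 for Serpinb11, 0.167 for Meox1 and 0.288 for Crispld2, all with intervals under 0.5. Csrp2 (1.30), Lbhd2 (1.38) and Serpinf1 (1.65) were between. With 1 library per side these intervals cover counting error only and there is no test. All 7610 genes had a mean of 10 CPM or more over the 15 mammary libraries other than TEB and duct, and all 8 genes are among them. The adult libraries are part of that mean. Meox1 passed narrowly, at 10.1 CPM, and Serpinb11 had a mean of 7.75 CPM without the SWISS adult. Counts of these genes as lower than an adult, here and below, are therefore descriptions.

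Postnatal day 5 was 2-fold or more higher in 0 of the 8 (10.6% of genes) and lower in 4 (15%), with ratios of 0.0749 for Crispld2, 0.0936 for Serpinb11, 0.233 for Meox1 and 0.347 for Lbhd2. No setting left out cells with the epidermal markers reported above for day 5. Their part in the day 5 ratios was not tested. Pre-puberty was higher in 1 (9.88%), Serpinf1 at 2.55-fold (2.26 to 2.87), and lower in 4 (12.9%): Serpinb11, Crispld2 at a ratio of 0.211, Csrp2 at 0.312 and Lbhd2 at 0.471. The median log2 ratio of the 8 (5 CPM added to both sides) was 0.30 at E18.5, -0.62 at day 5 and -0.31 at pre-puberty, against -0.22, 0.03 and 0.13 over all genes. The E18.5 median turned to -0.20 under the stricter keratin rule. By mean per-cell CPM the pre-puberty median turned to 0.07 and the day 5 median came to -0.07, with 3 of the 8 lower at day 5 (13.9% of genes).

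**Figure D3:**
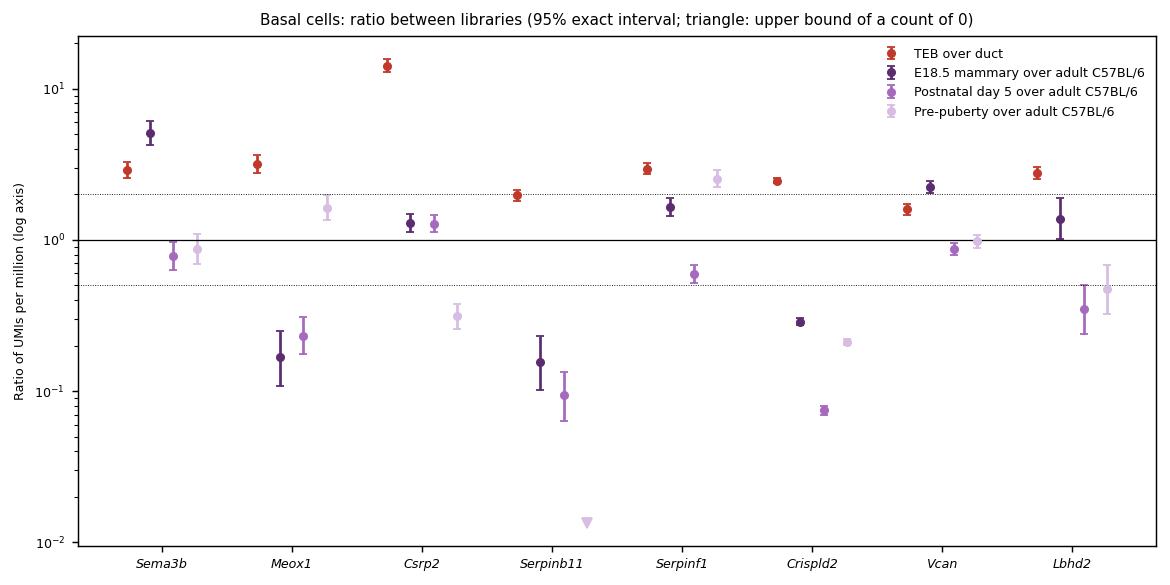
Ratio of CPM in basal cells (y axis, logarithmic) for each gene (x axis), TEB over duct in red and the 3 younger stages over the C57BL/6 adult in purple shades, with 95% exact intervals; dotted lines mark 2-fold. All TEB over duct ratios lie above 1, while Meox1, Serpinb11 and Crispld2 lie well below 1 at E18.5 and day 5, and the triangle marks the upper bound for Serpinb11 at pre-puberty, where no UMI was found.

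These counts depended on the adult used as reference. Set against the SWISS adult, E18.5 was 2-fold or more higher in 0 of the 8 (6.29% of genes) and lower in 6 (16.1%), and day 5 was higher in 0 (9.47%) and lower in 8 (10.6%). Pre-puberty was higher than the SWISS adult in 1 (17.5%) and lower in 6 (14.2%). The SWISS adult was itself 2-fold or more above the C57BL/6 adult in 6 of the 8 (5.83% of genes), from 2.42-fold for Serpinf1 to 22.5-fold for Lbhd2. Without cycling cells it was so in 6 (4.22%). Sema3b and Serpinb11 passed the filter of 10 CPM through the SWISS adult itself, with means of 8.67 and 7.75 CPM over the other libraries. The counts against the SWISS adult, and of it over the C57BL/6 adult, are therefore descriptions. So are the counts of Sema3b, Meox1 and Serpinb11 as below every adult, since adult values helped these genes pass the filter. Nothing is read from them beside the shares of all genes. Set against all 5 adult libraries at once, the TEB exceeded every adult in 7 of the 8 (22.1% of genes), a count that the choice of genes by TEB values favours, and the duct in 1, Meox1 (13.3%). The TEB count was 6 under the stricter keratin rule (20.4%) and 6 without cycling cells (19.4%). E18.5, day 5 and pre-puberty exceeded every adult in 0 of the 8 (13.4%, 19.2% and 25.2%), and lay below every adult in 2, 4 and 2 (27.7%, 16.5% and 16.7%). Without the SWISS adult, E18.5 exceeded the other 4 in 1, Sema3b (16.8% of genes), and the duct in 5 (17.7%). Both day 12.5 pregnancy libraries exceeded every adult in Serpinf1 and Lbhd2 (11.1% of genes in H and 10.2% in G). For Lbhd2, H at 131 CPM (126 to 137) and the SWISS adult at 131 CPM (126 to 136) were within counting error, and without stromal-marker cells H was lower, at 129 against 132 CPM. Both libraries lay below every adult in Sema3b and Meox1 (15.6% and 17.1%). Below every adult were 4 and 3 of the 8 at day 18.5 (17% in F4 and 15.8% in B4), 8 and 7 in lactation (77.0% in F11 and 43.8% in D6) and 3 post-involution (13.9%).

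Fibroblast-marker RNA was counted in the same basal cells. The 10 fibroblast markers summed to 1819 CPM in E18.5 basal cells, 730 CPM at day 5, 726 CPM at pre-puberty and 909 CPM in the C57BL/6 adult, against 102 CPM in the TEB and 330 CPM in the duct. Of 11 libraries with 20 or more cells that carried fibroblast markers and little keratin, Sema3b, Serpinf1 and Vcan were higher in these than in basal cells in 10, and Csrp2 in 11. Sema3b reached 413 CPM there at pre-puberty, where Vcan was lower than in basal cells (42.0 against 58.5 CPM). Serpinb11 had 0 UMIs in fibroblast-marker cells of 15 of the 17 mammary libraries and 1 UMI in each of the others, though 6 of the 17 held under 20 such cells. Without stromal-marker cells, E18.5 was 2-fold or more higher than the C57BL/6 adult in 4 of the 8 (10.5% of genes) and lower in 3 (26.1%), with Sema3b at 11.8-fold and an adult Sema3b level of 4.68 CPM. At E18.5 Vcan was 134 CPM in both keratin classes, Sema3b 59.4 CPM in basal and 74.2 CPM in luminal cells, and Serpinb11 2.15 and 0.303 CPM. The part of stromal RNA in these ratios was not tested beyond leaving those cells out.

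FVB/NJ stages were compared with edgeR's quasi-likelihood test over 13385 genes in 9 libraries, with Benjamini-Hochberg adjustment. From the adult to pregnancy day 12.5, 2 of the 8 fell and 0 rose (0.403% of genes fell and 0.344% rose). Meox1 fell from 20.3 ± 6.89 CPM (SD, n = 3) to 3.47 ± 0.374 CPM (n = 2), a log2 difference of -2.39 (SE 0.371, edgeR adjusted p = 0.0262). Sema3b fell from 8.67 ± 2.43 CPM to 1.18 ± 0.232 CPM, a log2 difference of -2.80 (SE 0.522, edgeR adjusted p = 0.0479). For both genes every day 12.5 library was below every adult library, and the share of all genes that separate in this way was not counted. Lbhd2 was 16.5 ± 25.8 CPM in the adults and 135 ± 4.48 CPM at day 12.5 and did not pass (log2 difference 2.94, SE 1.09, edgeR adjusted p = 0.238). Serpinf1 (1.21, edgeR adjusted p = 0.253), Serpinb11 (-3.27, edgeR adjusted p = 0.2), Csrp2, Crispld2 and Vcan did not pass either. Neither call held without library H, G, F4 or B4, where 0 of the 8 passed. Meox1 alone passed without D12, F11 or D6, 3 of the 8 passed without P7 (with Serpinb11) and 4 without A10 (with Vcan and Lbhd2). Sema3b was lost without stromal-marker cells (adjusted p = 0.192 in edgeR).

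From pregnancy day 12.5 to day 18.5, 0 of the 8 passed in edgeR, nor any of the 7 to which DESeq2 gave an adjusted p (1 gene rose and 0 fell of all tested in edgeR, 0.00747% and 0.0%), and 1177 genes had an unadjusted p under 0.05 in edgeR. Vcan was 105 and 109 CPM at day 12.5 and 12.8 and 20.8 CPM at day 18.5, and Lbhd2 131 and 138 CPM against 17.9 and 22.6 CPM. The share of all genes whose libraries separate in this way was not counted, and nothing is read from it. In lactation, Serpinf1 fell from 92.4 ± 3.02 CPM to 7.23 ± 1.93 CPM (n = 2 each; log2 difference -2.83, SE 0.579, edgeR adjusted p = 0.0218), the 1 call among the 8 (0.822% of genes fell and 3.29% rose). Milk genes took 58.4% (F11) and 29.3% (D6) of basal UMIs there, 5 of 5 endothelial and 6 of 6 immune markers rose in the same sums, and the part of either in the Serpinf1 value was not tested. The Serpinf1 call was lost without F4, B4, F11 or D6, where 0 of the 8 passed.

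Cycling cells were those with a UMI of 3 or more of 12 cycling genes. After thinning they made up 24.0% of basal cells at E18.5, 21.7% in the TEB, 20.7% at day 5, 19.7% in the SWISS adult, 15.3% and 14.7% at pregnancy day 12.5, 9.04% in the duct, 2.34% at pre-puberty and 1.35% in the C57BL/6 adult. The FVB/NJ adults gave 2.76% (A10), 0.698% (D12) and 0.182% (P7). Levels by cycling state use calls without thinning. By those calls cycling cells made up 51.2% of basal cells at E18.5, 54.9% in the TEB, 30.1% at day 5 and 29.3% in the SWISS adult. They made up 18.6% (H) and 19.6% (G) at pregnancy day 12.5, 17.8% in the duct, 2.86% at pre-puberty and 1.57% in the C57BL/6 adult. High shares at E18.5 and day 5 stood beside Serpinb11, Meox1 and Lbhd2 levels of at most 8.01 CPM. Sema3b, Csrp2, Serpinf1, Crispld2 and Vcan were at 37.9 to 134 CPM at E18.5 and 9.19 to 52.1 CPM at day 5.

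Within the FVB/NJ libraries, 5 of the genes were higher in cycling than in other basal cells. In the 7 FVB/NJ libraries with 20 or more cells of both states (A10, D12, H, G, F4, B4 and D6), edgeR with library as a block called 5 of the 8 higher and 0 lower (12.4% of 13188 genes rose and 13.4% fell). The TEB held a larger share of cycling basal cells than the duct, so the choice of genes by TEB over duct ratio may favour genes of cycling cells. The count of 5 is not independent of that choice. Serpinb11 rose by a log2 difference of 2.22 (SE 0.273, edgeR adjusted p = 2.18e-06), Sema3b by 2.02 (SE 0.277, 1.12e-05), Csrp2 by 1.42 (SE 0.148, 1.94e-07), Lbhd2 by 1.19 (SE 0.287, 0.00379) and Vcan by 0.90 (SE 0.216, 0.0036). Meox1 (-0.77, edgeR adjusted p = 0.0884), Crispld2 (-0.32) and Serpinf1 (0.04) did not pass. The 11 contractile genes tested fell, 11 of 11, in the same cells, as did 8 of 13 basal markers and 5 of 10 fibroblast markers. These 5 genes passed in all 15 alternatives run for this comparison, among them cycling cells called after thinning.

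The younger libraries did not all share these directions. Vcan was lower in cycling than in other basal cells at E18.5 (123 and 154 CPM), day 5 (43.9 and 57.4 CPM) and pre-puberty (41.0 and 59.4 CPM), with each ratio's interval below 1. Csrp2 was also lower in cycling cells at E18.5 (34.4 and 44.2 CPM), and Lbhd2 at day 5 (1.24 and 2.52 CPM). Sema3b was higher in cycling cells at E18.5 (68.2 and 44.0 CPM) and day 5 (13.9 and 6.18 CPM), and at pre-puberty it was 4.2 and 10.5 CPM with an interval that included 1. Csrp2 was higher in cycling cells at day 5 (55.8 and 25.6 CPM) and pre-puberty (29.4 and 8.10 CPM). Serpinb11 was higher in cycling cells at E18.5 (3.13 and 0.396 CPM, 28 and 2 UMIs) and day 5 (2.67 and 0.400 CPM, 30 and 7 UMIs). Pre-puberty rests on 70 cycling cells.

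The adult libraries show the size of the difference. Serpinb11 was 238 CPM in cycling and 50.2 CPM in other basal cells of A10, 101 and 7.90 CPM in D12, 155 and 9.23 CPM in the C57BL/6 adult, and 311 and 157 CPM in the SWISS adult. Its cycling level in these 4 adults thus ran from 101 to 311 CPM, beside 225 CPM in all TEB basal cells. Sema3b was 32.5 and 7.86 CPM in A10, 62.6 and 7.43 CPM in D12, 74.9 and 9.69 CPM in C57BL/6 and 126 and 69.1 CPM in SWISS. Lbhd2 was 154 and 33.0 CPM in A10, 24.1 and 1.71 CPM in D12, 37.4 and 4.80 CPM in C57BL/6 and 161 and 111 CPM in SWISS. All 4 adults were higher in cycling cells for each of these genes, and each ratio's interval lay above 1. D12 and C57BL/6 rest on 40 and 44 cycling cells. In the TEB itself the ratio of cycling over other cells was 2.39 for Serpinb11, 1.83 for Sema3b, 1.29 for Lbhd2, 1.16 for Csrp2 and 1.08 for Meox1.

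At pregnancy day 12.5 the same 2 states were compared within H and G in a fit of the same 7 libraries that gave each stage its own cycling effect, over 14184 genes. This fit, also used for the difference from adults below, left 3 residual degrees of freedom. Its p-values therefore rest largely on spread pooled over genes. At day 12.5, 3 of the 8 rose (12.9% of genes) and 3 fell (12%). Csrp2 rose from 10.7 to 32.8 CPM in H and from 14.2 to 32.6 CPM in G (log2 difference 1.22, SE 0.126, edgeR adjusted p = 2.2e-20). Serpinb11 (1.21, edgeR adjusted p = 0.000257) and Sema3b (1.18, edgeR adjusted p = 0.0438) rose to low levels, 5.81 and 5.03 CPM for Serpinb11 and 1.59 and 2.52 CPM for Sema3b in cycling cells of H and G. Meox1 (-1.75, edgeR adjusted p = 2.11e-05), Serpinf1 (-0.57, 3.71e-06) and Crispld2 (-0.41, 0.00177) fell. In the same cells 5 of 10 fibroblast markers fell, as did 7 of 13 basal markers and 11 of 11 contractile genes, and their part in these values was not tested. Vcan was 117 and 118 CPM in cycling and 100.4 and 105 CPM in other cells, and Lbhd2 159 and 156 CPM against 122 and 131 CPM, and neither passed. Pregnancy cells therefore held Lbhd2 and Vcan at high levels in both states, with Sema3b and Serpinb11 low in both. With DESeq2, 2 of the 8 passed (Csrp2 and Serpinf1), and with the C57BL/6 and SWISS adults added 3 did (Csrp2, Serpinf1 and Meox1). Without G, Csrp2 alone passed, and without H, Csrp2 and Meox1.

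The cycling difference itself was lower at pregnancy day 12.5 than in the FVB/NJ adults for 7 of the 8 (2.73% of genes were lower and 3.23% higher in this interaction). The log2 difference between the 2 effects was largest in size for Lbhd2 at -2.05 (SE 0.211, edgeR adjusted p = 4.53e-19), and Sema3b did not pass (-1.11, edgeR adjusted p = 0.243). The 12 genes that defined cycling cells were themselves lower in this interaction in 7 of 12, with a median of -1.21 beside -1.25 for the 8 genes, and 3 of 10 fibroblast markers were lower. Of the luminal markers 5 of 14 were higher, and of the basal markers 3 of 13, with 0 of either lower. The adult side rests on A10 and D12. With the C57BL/6 and SWISS adults added, 2 of the 8 passed (Lbhd2 and Serpinf1) and Csrp2 turned from -0.62 to 0.022, and DESeq2 called 3 (Lbhd2, Vcan and Serpinf1), the same 3 that passed without H or without G. Without A10 and without B4, 4 passed.

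**Figure D4:**
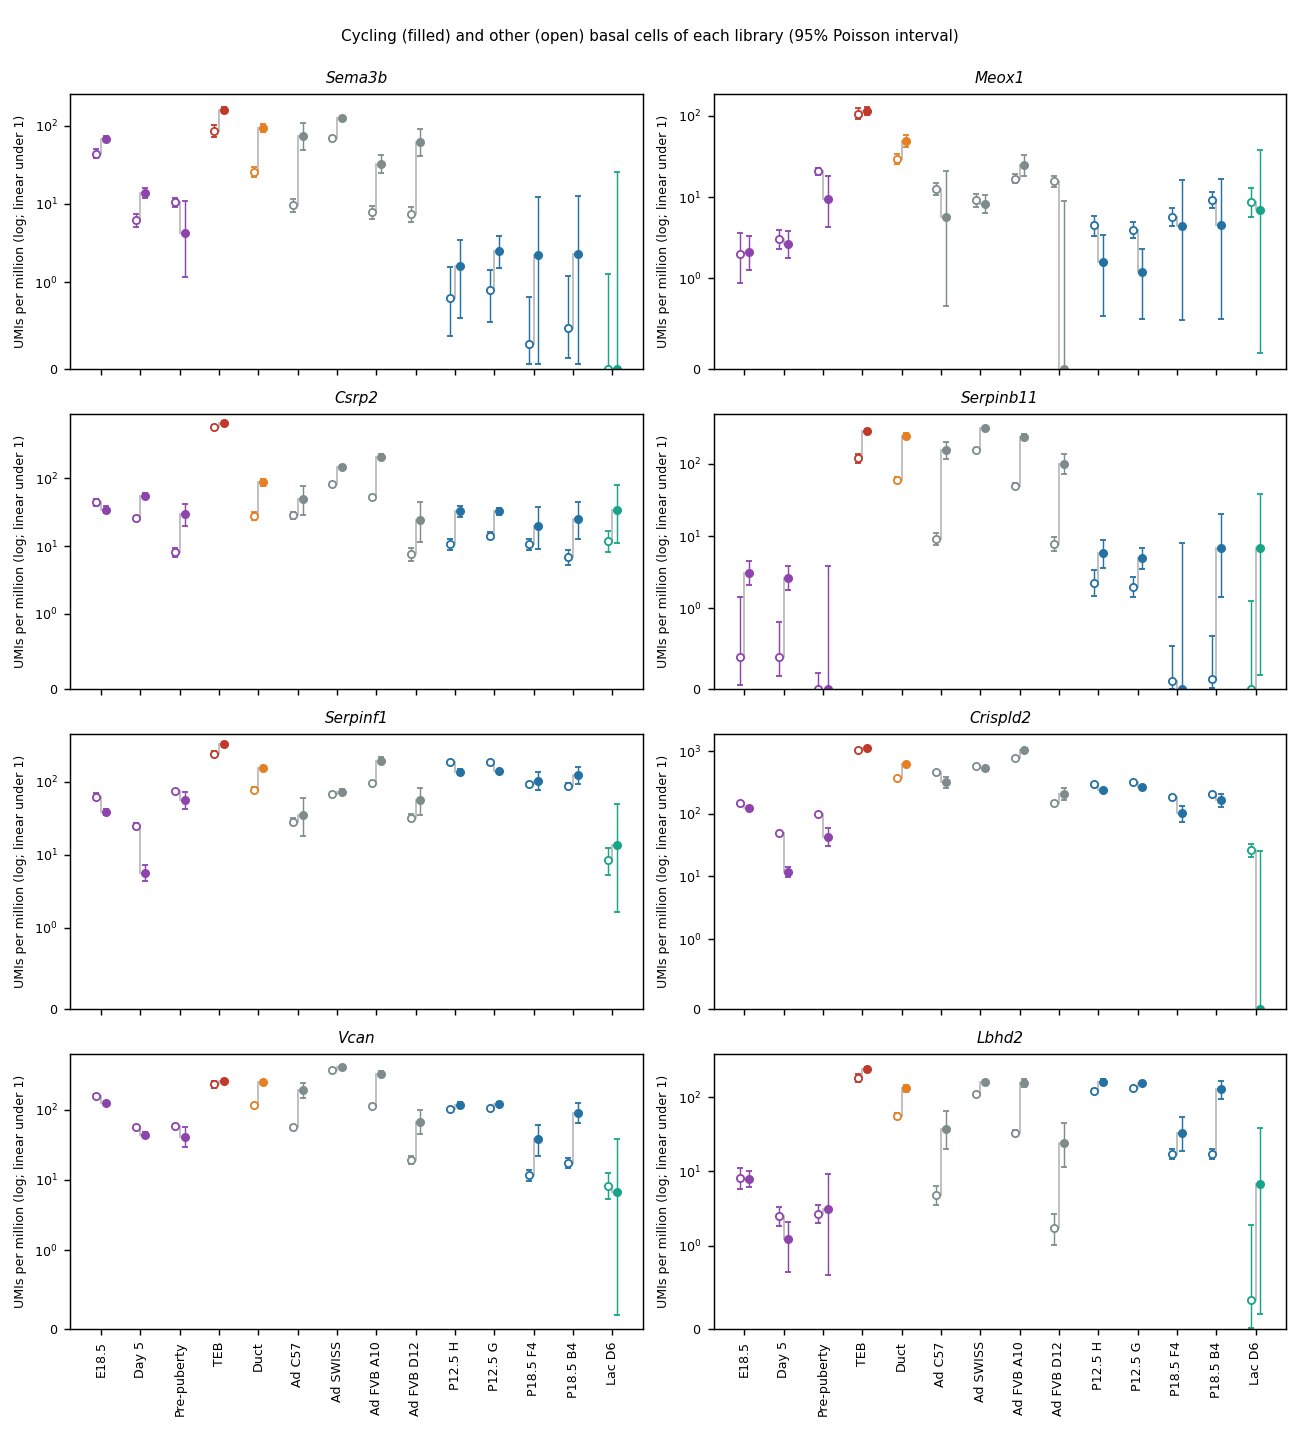
CPM (y axis, logarithmic and linear under 1) in cycling (filled) and other (open) basal cells of the 14 mammary libraries with 20 or more of each (x axis), with 95% Poisson intervals. Serpinb11 and Sema3b are higher in cycling cells of all 4 adults shown and stay under 10 CPM in both states at pregnancy day 12.5, where Lbhd2 and Vcan are near or above 100 CPM in both.

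In the FVB/NJ libraries all 8 genes were higher in basal than in luminal cells. Against luminal cells of the 9 FVB/NJ libraries (edgeR with library as a block, 15109 genes), 8 of the 8 were higher in basal cells and 0 lower (27.5% of genes were higher and 29.9% lower). The log2 difference ran from 0.83 for Csrp2 (SE 0.237, edgeR adjusted p = 0.00975) to 3.39 for Meox1 (SE 0.280, edgeR adjusted p = 1.14e-06), with Vcan at 2.65 and Serpinf1 at 2.51. Of the fibroblast markers, 4 of 10 were also higher in the basal class, and their part in these values was not tested. Over all 17 mammary libraries, Serpinf1 and Vcan were higher in basal cells in 17, Meox1 and Csrp2 in 16, Crispld2 and Serpinb11 in 15, Sema3b in 14 and Lbhd2 in 13. The ratio's interval lay above 1 in 17 for Serpinf1, 16 for Vcan and 15 for Meox1 and Crispld2. It did so in 14 for Csrp2, 10 for Serpinb11 and Lbhd2 and 9 for Sema3b. For Csrp2, Lbhd2 and Sema3b it lay below 1 in 1 library each.

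Fibroblast-marker cells split the genes. In the 11 libraries with 20 or more such cells, Csrp2 was higher in them than in basal cells in 11, and Sema3b, Serpinf1 and Vcan in 10, with median ratios of 13.4, 10.7, 15.3 and 5.49. Serpinb11 and Lbhd2 were higher in 0 of 11, and Meox1 and Crispld2 in 3. In thinned cells of the C57BL/6 adult, Serpinb11 had a UMI in 1.4% of basal and 0% of fibroblast-marker cells, while Serpinf1 had one in 3.8% and 68.5%.

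**Figure D5:**
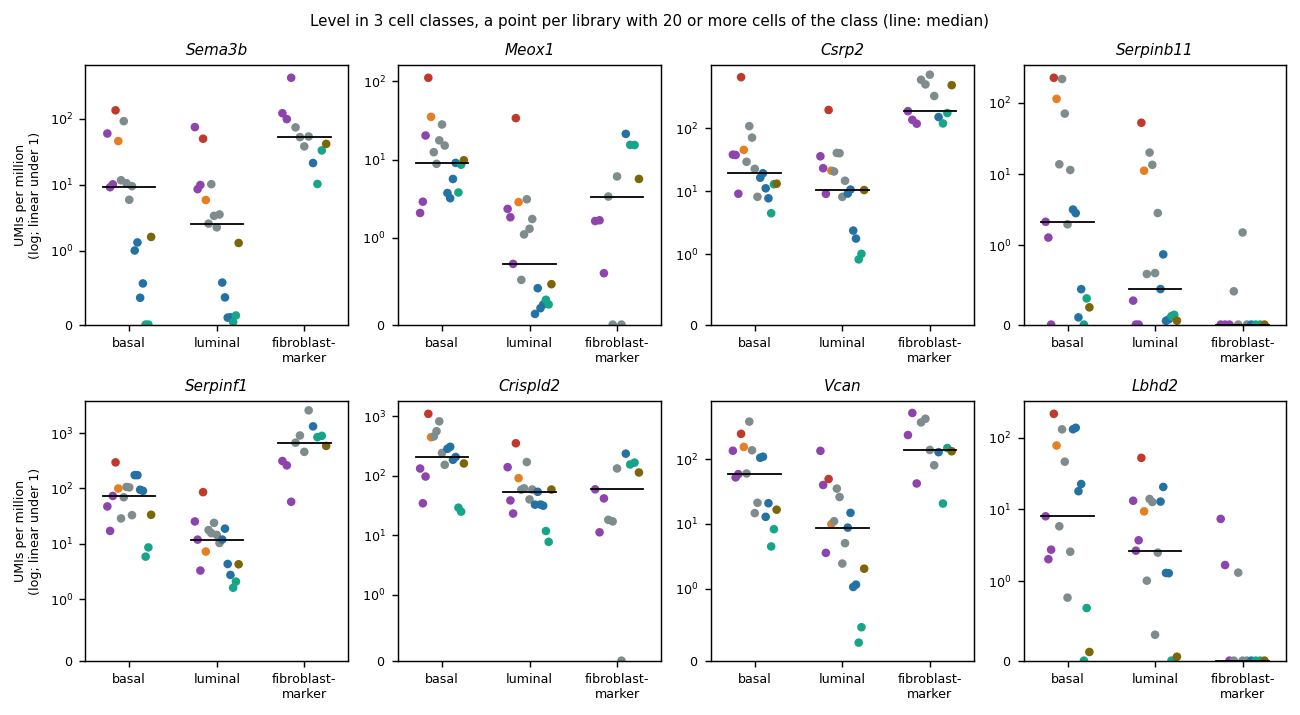
CPM (y axis, logarithmic and linear under 1) of each gene in basal, luminal and fibroblast-marker cells (x axis), 1 point per mammary library with 20 or more cells of the class, coloured as in the plot of basal levels, with the median as a line. Sema3b, Csrp2, Serpinf1 and Vcan have higher medians in fibroblast-marker than in basal cells, and the Serpinb11 and Lbhd2 medians in fibroblast-marker cells are 0.

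The other genes of the members' pathways were counted in the same tests, beside 12.4% of all genes that rose and 13.4% that fell in cycling cells. The semaphorin, versican and serpin lists each hold at least 1 of the 8 genes. Of 14 class 3 semaphorins and receptors, 13 were tested in cycling against other basal cells and 2 rose (Sema3b, and Sema3a at a log2 difference of 2.10 with edgeR adjusted p = 0.0168) while 2 fell (Plxna4 at -1.84 and the receptor Nrp2 at -0.51). From adult to pregnancy day 12.5, Sema3b fell, 1 of 12 tested, and Sema3c was higher without passing (1.55, edgeR adjusted p = 0.0508). Of 15 genes tested from the versican and hyaluronan list, 2 rose in cycling cells (Vcan, and the matrix protein gene Fbln1 at 1.38) and 2 fell, both versican-cleaving proteases (Adamts4 at -1.29 and Adamts1 at -0.57). Of 12 serpins, Serpinb11 and Serpinb2 (1.58) rose and 4 fell, led by Serpinb9 (-1.01) and Serpinb6b (-0.95). Among the paralogues of the 8 genes, Csrp1 fell in cycling cells (-1.18, edgeR adjusted p = 3.42e-07), while its paralogue Csrp2 rose.

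Across the 15 mammary libraries other than TEB and duct, some pairs of the genes varied together. Pearson's r of log2(CPM + 5) was 0.80 for Csrp2 with Vcan, 0.79 for Csrp2 with Serpinb11, 0.75 for Csrp2 with Sema3b and 0.75 for Crispld2 with Serpinf1, and it was -0.27 for Lbhd2 with Meox1. Meox1 had an r of 0.33 or less with each of the others. The gene most like each was Celf2 for Sema3b (0.88), Ecm1 for Meox1 (0.91), Odc1 for Csrp2 (0.93), St8sia6 for Serpinb11 (0.88), Nebl for Serpinf1 (0.95), 1500009L16Rik for Crispld2 (0.90), Pola1 for Vcan (0.93) and Opcml for Lbhd2 (0.96). The next were Sssca1 (0.85) and Mrps25 (0.85) for Sema3b, Tnfrsf11b and Prelp (both 0.90) for Meox1, Dnajc2 (0.86) and Abl2 (0.84) for Csrp2, and Rnf149 (0.82) and Polr3d (0.81) for Serpinb11. They were Gpx7 and Serpinh1 (both 0.90) for Serpinf1, Gpr3 (0.89) and Nt5dc3 (0.89) for Crispld2, Dph6 (0.91) and Fbn2 (0.89) for Vcan, and Dph3 (0.92) and Ctnnd2 (0.90) for Lbhd2. These points are single libraries that differ in stage, strain and depth, and the values are a description of the 15 libraries.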

How the data were processed

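RNA was counted in 18 libraries of the 10x Chromium platform. The authors aligned reads with Cell Ranger (version 3.1.0 for 2 libraries and 3.0.2 for 16 per the file headers; 3.1.0 and mm10 per the submitters' processing notes), and the deposited values are raw UMI counts per gene and cell barcode. The filters of the study were applied to cells (over 500 genes, a mitochondrial share under 15% to 25%, upper limits per library), leaving 132599 of 149371 barcodes; no doublet caller was run. Counts of basal, luminal, cycling and fibroblast-marker cells (10 or more fibroblast-marker UMIs and at most 2 keratin UMIs) were summed per library where a class had 20 or more cells.

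edgeR 4.0.16 (quasi-likelihood, TMM, filterByExpr) was the main test, at an adjusted p of 0.05, with DESeq2 1.42.0 as an alternative. Intervals for single libraries were Poisson, exact binomial or exact conditional (95%). The CPM limit for 0 Serpinb11 UMIs at pre-puberty was that of 3 counts, and other limits for 0 were those of the intervals. On simulated data with 100 genes changed at each size, the stage fit for pregnancy day 12.5 against adult (13385 genes) recovered 0 of 100 at a log2 change of 1 and 31 of 100 at 2, and the cycling fit (13188 genes) 100 of 100 at both, with 20 false calls. The members and lists were chosen with earlier results of these data known. Named list genes were up to 2 per list and direction with the largest change, and the 3 most similar genes per member. Promoter sequences are RefSeq's (5 of 8 genes matched). The E18.5 skin library was not used in the comparisons.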

Additional observations from a re-analysis of the deposited data

Results flagged for a closer look

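The cycling difference (cycling minus other basal cells, log2) was lower at pregnancy day 12.5 than in FVB/NJ adults for 7 of the 8 genes in the test of that difference with edgeR. The difference between the 2 effects was -2.05 for Lbhd2, -1.89 for Meox1, -1.45 for Serpinf1, -1.38 for Vcan, -1.12 for Serpinb11, -0.72 for Crispld2 and -0.62 for Csrp2. The 12 genes that defined cycling cells were lower in 7 of 12, with a median of -1.21 beside -1.25 for the 8 genes. For Meox1 the adult side rested on A10, since D12 had 0 Meox1 UMIs in its 40 cycling basal cells, and without A10 the value was 7.83. With the C57BL/6 and SWISS adults added, the adjusted p in edgeR stayed under 0.05 for Lbhd2 and Serpinf1, and the Csrp2 value turned to 0.022.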

How the results depend on the processing

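No paired analysis was possible because the labels name libraries by letters with no replicate number, and the study's numbers are not stated to tie libraries of different stages; within-library comparisons had the library as a block. Of 1122 alternative values, 928 were scored as the same as the main value. Of these, 725 were single-gene values that kept their direction and side of the threshold. The other 203 were counts that stayed near the main count, while 84 counts moved. For pregnancy day 12.5 against adult, 4 of the 8 genes passed with no low-count filter and 1 without stromal-marker cells (main 2); the genes called in all were 658 (DESeq2), 1058 (no filter), 192 (strict keratin rule), 166 (without stromal-marker cells) and 239 (1000 or more genes per cell) against 100. For day 18.5 against 12.5, 3 of the 8 passed with no filter, and the genes called were 174 (DESeq2), 9 (without TMM), 358 (no filter), 5 (strict) and 0 (1000 genes) against 1. For lactation, 3 of the 8 passed without TMM and with no filter, and the genes called were 966, 922, 1488, 333 and 976 in the same order of settings against 550.

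In cycling cells of pregnancy day 12.5, 2 of the 8 passed with DESeq2 (914 genes) and 3 with the C57BL/6 and SWISS adults added, a setting chosen after seeing the data; for the pregnancy minus adult difference the counts were 3 and 2 of the 8, with 60 genes (DESeq2), 545 (without stromal-marker cells) and 154 (adults added) called against 845. Leaving out 1 library at a time gave 0 to 4 of the 8 and 1 to 501 genes for day 12.5 against adult, 0 of the 8 and 0 to 72 genes for day 18.5, 0 to 2 and 16 to 987 for lactation, 5 to 7 and 2731 to 3523 for cycling, 1 to 7 and 622 to 4794 for cycling at day 12.5, 3 to 7 and 46 to 1906 for the difference, and 8 and 7773 to 8700 for basal against luminal.

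Directions turned mostly for genes that had not passed; Csrp2 and Meox1 in the cycling difference had passed. Serpinb11 in lactation (main 0.17) was -0.57 without TMM and -0.74 without stromal-marker cells, and -4.56 to 1.44 leaving out a library. Csrp2 in lactation was -0.11 without TMM, and Meox1 -0.24 both without TMM and under the strict rule. Serpinf1 in cycling cells was -0.069 with no filter, -0.068 under the strict rule, -0.11 with 1000 genes and -0.19 after thinning, and -0.22 to 0.18 leaving out a library. Vcan in cycling cells of day 12.5 was -0.019 with no filter and -0.011 under the strict rule. In the cycling difference, Csrp2 was 0.022 with the C57BL/6 and SWISS adults added, and Meox1 -2.29 to 7.83 leaving out a library. For day 12.5 against adult, Csrp2 ran from -1.38 to 0.51 and Crispld2 from -0.83 to 0.80.

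E18.5 was 2-fold or more over the C57BL/6 adult in 1 of the 8 under the strict rule (10.8% of genes) and in 4 without stromal-marker cells (10.5%). It was so in 3 by mean per-cell CPM (11.2%) and in 3 without cycling cells (9.99%). Against the SWISS adult E18.5 was higher in 0 (6.29%) and lower in 6 (16.1%). Day 5 was lower in 8 against SWISS (10.6%). These SWISS counts are descriptions, since Sema3b and Serpinb11 passed the 10 CPM filter through that library. Pre-puberty was higher than the C57BL/6 adult in 2 by mean per-cell CPM (10.3%) and higher in 0 against the mean of 3 FVB/NJ adults (14.5%). The duct exceeded all adults in 0 without stromal-marker cells (11.8%) and 5 without the SWISS adult (17.7%), and E18.5 in 1 without it (16.8%). The cause was not tested. The low recovery at a log2 change of 1 limits the stage tests.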
